A study of Mus musculus with 6 samples.

Results

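The left ventricle is the main pumping chamber of the heart, and 35 of its genes that handle reactive oxygen species and redox-active metals are described here in mice with and without extra RBM20, a splicing regulator of heart muscle. The 35 genes were listed by name from the 31273 gene symbols measured. The list uses no threshold on their values, but it was drawn up with earlier results of these data known. They comprise the regulators and enzymes of the NRF2 response, the glutathione and thioredoxin systems, the peroxiredoxins, the superoxide dismutases and catalase, the metallothioneins and ferritins, and NADPH-linked enzymes that make or limit superoxide. All 35 were measured, and all 35 had a mean of at least 1 TPM over the 6 libraries (TPM is a share of all transcripts corrected for gene length). Mt2 and Nox4 reached that mean through the overexpression libraries and Nnt through the control libraries, so for these genes the filter itself favours a difference. The samples were 3 left ventricles whose genotype label is control and 3 whose genotype label is cardiomyocyte-specific RBM20 overexpression. According to the series text the overexpression comes from a knock-in that tamoxifen switches on in cardiomyocytes. Sample titles carry the code cki for the controls and cre for the overexpression ventricles, and the labels do not explain these codes. The promoter that drives the recombinase, the strain, age and sex of the mice, and whether the controls carried the recombinase or received tamoxifen are not stated in the labels. The labels do not state that each library is a separate animal, so the p-values reflect the spread among libraries, which may be technical.

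NRF2, encoded by Nfe2l2, is a transcription factor that the adaptor protein KEAP1 normally marks for degradation. Oxidants and electrophiles modify KEAP1, and NRF2 then binds antioxidant response elements and switches on enzymes that make glutathione, recycle thioredoxin and detoxify quinones and heme. Glutathione and thioredoxin are a pair of thiol systems, both fed by NADPH, that keep proteins reduced and supply the enzymes that destroy peroxides. Heart muscle is packed with mitochondria, and its superoxide and hydrogen peroxide are largely cleared there by a dedicated set of enzymes, among them SOD2, PRDX3, PRDX5, thioredoxin 2 and NNT. Metallothioneins hold zinc and copper and ferritin stores iron, which limits the metal-driven formation of radicals.

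Rbm20 itself stood at 74.9, 90.9 and 79.5 TPM in control replicates 1 to 3, against 321, 913 and 907 TPM in overexpression replicates 1 to 3, so the libraries followed their labels. Esr1, whose hormone-binding part is used in tamoxifen-inducible recombinases, was listed between 0.234 and 0.415 TPM in the controls, against 52.98 to 218 TPM with overexpression. Esr1 thus differed between the groups together with Rbm20. The part of a recombinase or of tamoxifen in the differences below was not tested and cannot be told apart from that of RBM20 here. Overexpression replicate 1 was the only library with a Y-linked transcript profile (Ddx3y at 88.1 TPM), so the tests of the 35 genes and of the ratios were repeated without it. Reads recovered from the TPM values of 12271 genes lay between 35000000 and 73800000 per library. They are known up to a whole factor per gene and leave out other genes, so the depth may be higher. Mitochondrially encoded transcripts made up 49.7% ± 1.99 of TPM in the controls against 38.7% ± 2.21 with overexpression (SD, n = 3 each), and the 12 cardiomyocyte markers summed to 54497 to 60699 TPM against 42541 to 48470.1 TPM. Since TPM in a library add up to a fixed total, a smaller share of one set of transcripts raises the share of the others by construction. The median log2 difference of all 12404 genes tested was 0.55 in deposited TPM, and 0.01 after the libraries were put on a common scale by median of ratios (rescaling). Differences between the groups are therefore given under both scalings, and folds of group means are those of deposited TPM. Below, "rose" and "fell" are used for genes called in the same direction under both, with a call meaning an adjusted p below 0.05 in limma. Rescaling moved differences downward, so it is no separate check of a decrease. In whole tissue, fewer cells of a type and less RNA per cell cannot be told apart.

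Promoter windows of the 35 genes were searched for the core letters of the antioxidant response element. Printed at length are 3 of them, of Gclm, Txnrd1 and Prdx1, picked because these genes rose under both scalings and carry the core. Response to NRF2 was not tested. The 250 bases before the start of each RefSeq entry (GRCm38.p6, plus strand for all 3) are given 5′ to 3′, with matches to the core TGACNNNGC in capitals, here on the opposite strand.
Gclm (chr3:122245307-122245556): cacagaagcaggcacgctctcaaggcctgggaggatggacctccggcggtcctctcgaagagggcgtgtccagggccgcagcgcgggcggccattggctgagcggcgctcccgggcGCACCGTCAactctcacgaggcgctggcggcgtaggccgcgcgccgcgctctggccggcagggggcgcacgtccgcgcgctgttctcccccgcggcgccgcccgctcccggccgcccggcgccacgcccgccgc
Txnrd1 (chr10:82858956-82859205): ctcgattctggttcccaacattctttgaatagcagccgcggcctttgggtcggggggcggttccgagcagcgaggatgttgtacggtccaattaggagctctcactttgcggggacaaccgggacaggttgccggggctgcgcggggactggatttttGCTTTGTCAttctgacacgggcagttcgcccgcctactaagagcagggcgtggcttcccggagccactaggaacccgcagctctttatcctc
Prdx1 (chr4:116685349-116685598): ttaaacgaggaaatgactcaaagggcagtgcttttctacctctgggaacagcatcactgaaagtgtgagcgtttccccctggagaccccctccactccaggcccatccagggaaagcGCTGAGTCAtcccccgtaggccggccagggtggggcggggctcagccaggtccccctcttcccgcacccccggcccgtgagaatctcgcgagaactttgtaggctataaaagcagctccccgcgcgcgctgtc
The Gclm match lay 134 to 126 bases before the start, the Txnrd1 match 92 to 84 bases before it, and the Prdx1 match 133 to 125 bases before it. The other 4 members with a match are shown by 30 bases around it, on the strand of the gene, and the Srxn1 match lies 29 to 37 bases after the start.
Nfe2l2 (chr2:75704884-75704913, minus strand): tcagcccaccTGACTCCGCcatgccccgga
Srxn1 (chr2:152105542-152105571, plus strand): gcagtgggcaGCTAGGTCAgagtgagacac
Sod1 (chr16:90220696-90220725, plus strand): gccaaggtggGCGTGGTCAgactcaggcct
Mt2 (chr8:94172529-94172558, plus strand): aaagggggtgTGACTCAGCgcggggggtgg
The Prdx1 and Mt2 matches, as read on the matching strand, contain TGACTCA, which is also the binding motif of AP-1 factors. A RefSeq window of 300 bases (250 before to 50 after the start) was found for 29 of the 35 genes, and 7 of these 29 held TGACNNNGC on either strand. The same core occurred in 12.4% of all 32851 windows of that length and in 17.2% of the 9663 tested genes with a window. Of the 7, Nfe2l2, Gclm, Txnrd1, Prdx1 and Mt2 rose, as did 14 of all 35 genes and 22.2% of all tested genes. Srxn1 and Sod1 were called higher in deposited TPM alone. In deposited TPM 59.0% of all tested genes were called higher. A link between the core and the calls was not tested. No window was at hand for Hmox1, Gclc, Gsr, Prdx6, Sod3 and Nnt. A match describes letters only and shows no binding.

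Of the 35 genes, 26 were called higher in the overexpression libraries in deposited TPM, where 59.0% of all tested genes were called higher, and 4 were called lower (background 9.09%). After rescaling, 14 were called higher (background 22.2%) and 10 lower (background 24.0%). The 14 were called higher under both scalings (background 22.2%), and they were Nfe2l2, Nqo1, Gclc, Gclm, Gss, Gsr, Gpx1, Gpx3, Txn1, Txnrd1, Prdx1, Prdx4, Mt2 and Nox4. The 4 that fell (background 9.09%) were Sod2, Prdx3, Prdx5 and Nnt, whose products work in mitochondria. Mt2, Nox4 and Nnt are counted here although the filter favours a difference for them, as stated above. Another 11 were called higher in deposited TPM and not called after rescaling, 5 were not called in TPM and lower after rescaling, and Gpx4 was called in opposite directions. The groups did not overlap for 26 genes that were higher (background 62.1%) and 5 that were lower (background 10.4%). The median log2 difference was 0.88 over the 35 genes in deposited TPM and 0.30 after rescaling, against 0.55 and 0.01 over all tested genes. In voom on recovered reads, which also used the common scale, 13 genes were called higher (background 21.3%) and 10 lower (background 23.4%). Without overexpression replicate 1, the only library with Y-linked transcripts, 27 genes were called higher (background 55.3%) and 4 lower (background 8.83%) in deposited TPM, and 13 higher (background 19.8%) and 8 lower (background 22.6%) after rescaling.

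**Figure D1:**
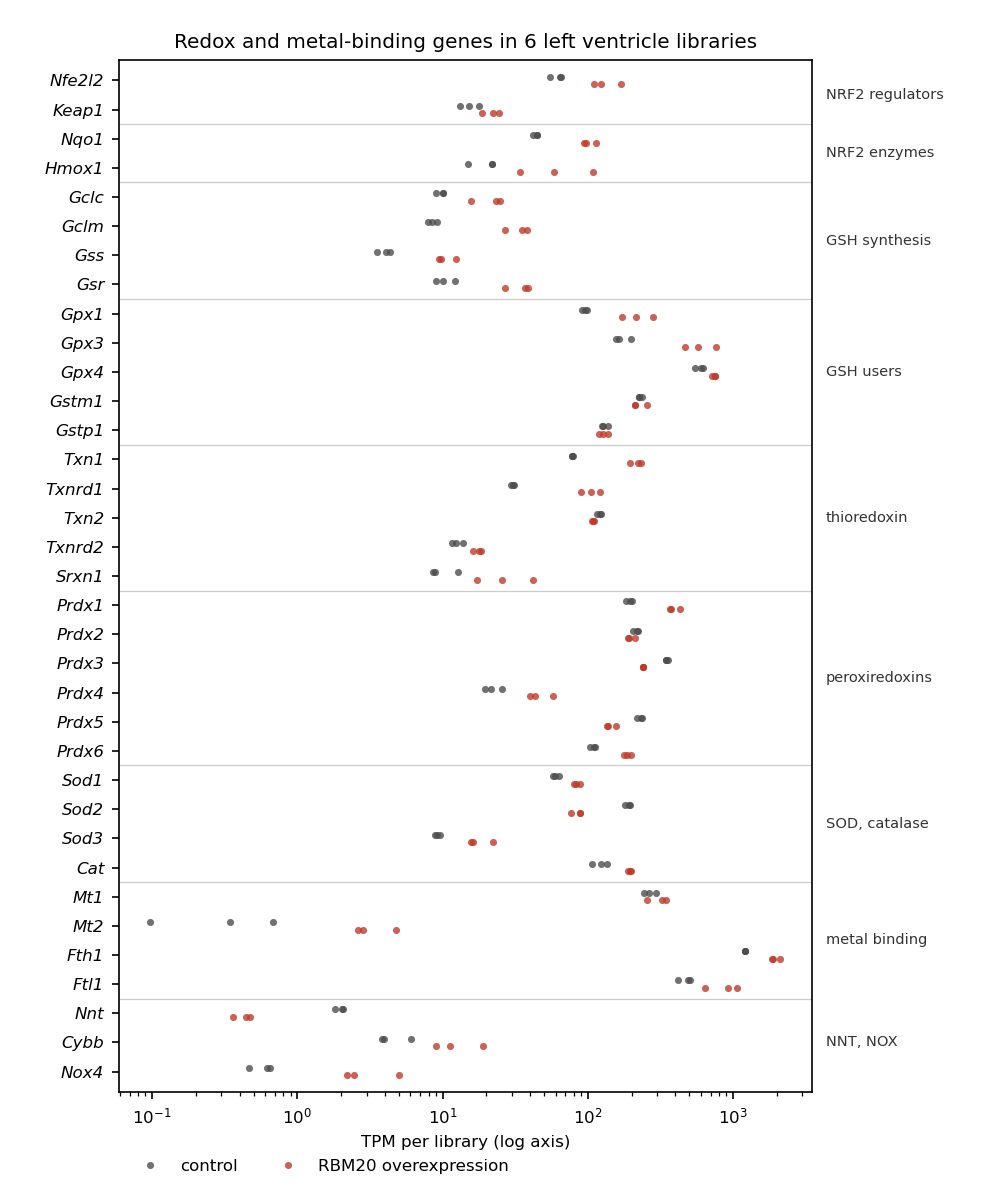
TPM of the 35 genes in each of the 6 libraries on a log axis, control in grey and RBM20 overexpression in red, ordered by role. Fth1 is the most abundant gene in every library, and Sod2, Prdx3, Prdx5 and Nnt are the genes whose overexpression points lie clearly to the left of the control points, with Txn2 to the left by a small margin.

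The levels spanned a wide range on the TPM scale, which is corrected for gene length. The lengths used are not given, so an order of genes by TPM is only as good as those lengths. In the controls, Fth1 had the highest mean at 1206 ± 8.51 TPM, followed by Gpx4 at 589.7 ± 40.8, Ftl1 at 473 ± 47.5 and Prdx3 at 348 ± 5.08 TPM (SD, n = 3 each). In the overexpression group the order of the leading genes was Fth1 at 1945 ± 148, Ftl1 at 876 ± 215, Gpx4 at 739 ± 19.7 and Gpx3 at 602 ± 146 TPM (SD, n = 3 each). Ftl1, Gpx4 and Gpx3 overlapped in the overexpression libraries, so their order there is not larger than the spread. Mt2, Nox4 and Nnt were the least abundant of the 35 in both groups.

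**Figure D2:**
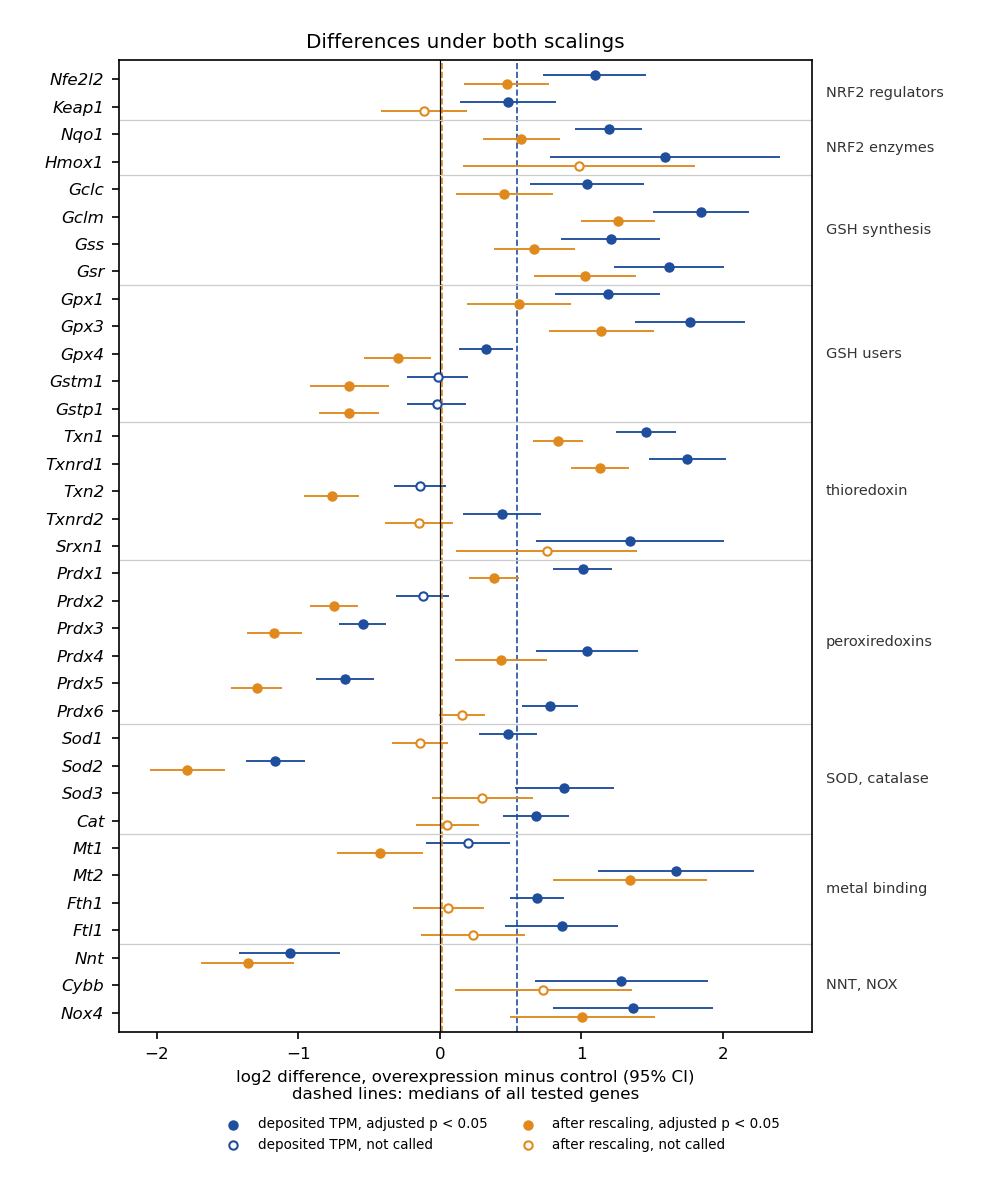
Log2(TPM + 1) differences between overexpression and control with 95% confidence intervals from limma, in deposited TPM (blue) and after rescaling (orange). Filled points passed the adjusted threshold, and the dashed lines mark the medians of all tested genes (0.55 and 0.01). Gclm, Gpx3 and Txnrd1 lie farthest to the right in deposited TPM and Mt2 after rescaling, and Sod2 lies farthest to the left under both.

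The gene for NRF2 rose in the overexpression ventricles, while the gene for its inhibitor KEAP1 was higher in deposited TPM alone. Nfe2l2 was measured at 54.8, 64.4 and 65.1 TPM in the controls and 123, 169.7 and 109.9 TPM with overexpression. All 3 overexpression libraries lay above all controls, with replicate 2 the highest. The mean was 2.18-fold higher, and the log2 difference was 1.09 (SE 0.16, adjusted p = 0.000473 in limma) in deposited TPM and 0.47 (SE 0.129, adjusted p = 0.0185) after rescaling. The rescaled call was lost without control replicate 1 (adjusted p = 0.0541) and without control replicate 2 (adjusted p = 0.0523). Keap1 stood at 13.2, 15.3 and 17.8 TPM in the controls and 22.3, 24.6 and 18.7 TPM in the overexpression libraries. Its log2 difference of 0.48 (adjusted p = 0.0191) in deposited TPM became -0.11 (adjusted p = 0.515) after rescaling, so its direction depends on the scaling. Even in deposited TPM the Keap1 call was lost without control replicate 1 (adjusted p = 0.0636) or overexpression replicate 2 (adjusted p = 0.0695). Keap1 exons overlap the antisense gene Gm16754 over 10.9% of their length in GENCODE M21, and whether the counting used the strand is not given.

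Both enzymes classed here as NRF2 targets were higher in every overexpression library than in any control in deposited TPM, as were 62.1% of all tested genes. Nqo1, which reduces quinones by a route that avoids semiquinone radicals, was at 44.8, 41.8 and 44.5 TPM in the controls and 114, 93.4 and 96.9 TPM in the overexpression libraries. It rose 2.32-fold, with log2 differences of 1.19 (SE 0.104, adjusted p = 4.64e-05) and 0.58 (SE 0.117, adjusted p = 0.00511) before and after rescaling. Hmox1, the inducible heme oxygenase that opens the heme ring and releases iron, was at 15.00, 21.8 and 21.9 TPM in the controls and 108, 58.5 and 34.1 TPM in overexpression replicates 1 to 3. The groups did not overlap, but the overexpression libraries were spread widely, with replicate 1 at the top. The Hmox1 difference in log2 was 1.59 (SE 0.357, adjusted p = 0.00421) in deposited TPM and 0.98 (SE 0.353, adjusted p = 0.052) after rescaling, just outside the threshold. Without overexpression replicate 3 the rescaled difference was 1.33 and was called (adjusted p = 0.0107). Over all 6 rescaled limma fits that left out a library it lay between 0.56 and 1.33, with adjusted p up to 0.131. Macrophages, which break down heme from red cells, express Hmox1 strongly, and the 20 macrophage markers summed to 421 to 554 TPM in the controls and 940.5 to 1657 TPM in the overexpression libraries. None of these 20 was at 0, replicate 1 had the highest sum, and the part of the markers in the Hmox1 values was not tested.

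All 4 genes that make or recycle glutathione rose. Gclm encodes the modifier subunit of glutamate cysteine ligase, which carries out the first and rate-limiting step of glutathione synthesis. It was measured at 8.50, 9.18 and 7.90 TPM in the controls and 35.3, 38.1 and 27.1 TPM in the overexpression libraries, 3.93-fold higher on average. The log2 difference was 1.84 (SE 0.148, adjusted p = 3.27e-05) and exceeded that of 96.8% of tested genes, and after rescaling it was 1.26 (SE 0.113, adjusted p = 9.86e-05). Gclc, the catalytic subunit of the same enzyme, was at 9.995, 10.01 and 8.95 TPM against 24.9, 23.2 and 15.7 TPM. All its overexpression values were above the controls, and replicate 3 was the lowest of them. Its log2 difference was 1.04 (adjusted p = 0.000976) in deposited TPM and 0.46 (adjusted p = 0.037) after rescaling. The rescaled Gclc call was lost in 5 of the 6 fits that left out a library, all but the one without overexpression replicate 3 (adjusted p up to 0.115), and also in voom on recovered reads (adjusted p = 0.0563).

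Gss, glutathione synthetase, completes the tripeptide. Its level was low, at 4.07, 4.32 and 3.54 TPM in the controls and 9.52, 12.3 and 9.72 TPM in the overexpression libraries, and the groups did not overlap. The log2 difference was 1.21 (SE 0.152, adjusted p = 0.000233) before and 0.67 (SE 0.124, adjusted p = 0.0033) after rescaling. Gsr, glutathione reductase, returns oxidised glutathione to its reduced form with NADPH. It was at 12.2, 9.002 and 10.1 TPM in the controls and 37.1, 39.01 and 26.9 TPM in the overexpression libraries, 3.28-fold higher on average. Its log2 differences were 1.62 (SE 0.17, adjusted p = 0.000103) and 1.02 (SE 0.156, adjusted p = 0.00126). The Gclm, Gss and Gsr calls held under both scalings whichever single library was left out.

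The 5 genes whose products spend glutathione did not move together: Gpx1 and Gpx3 rose, and Gpx4, Gstm1 and Gstp1 did not. Gpx3, the glutathione peroxidase secreted into extracellular fluid, was at 157, 199.5 and 165 TPM in the controls and 758, 576 and 469.9 TPM in the overexpression libraries. Even the lowest overexpression value was well above the highest control value. The mean was 3.46-fold higher, with log2 differences of 1.77 (SE 0.17, adjusted p = 7.14e-05) and 1.14 (SE 0.16, adjusted p = 0.000842). Gpx1, the general peroxidase of cytosol and mitochondria, was at 98.99, 91.5 and 95.8 TPM against 281, 216 and 171 TPM, again without overlap. Tested in limma, the log2 difference of Gpx1 was 1.18 (adjusted p = 0.000337) in deposited TPM and 0.56 (adjusted p = 0.0212) after rescaling, where the call was lost without control replicate 2 (adjusted p = 0.0754) and without control replicate 3 (adjusted p = 0.0566).

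Gpx4, which reduces lipid hydroperoxides in membranes, was at 622, 544 and 603 TPM in the controls and 748, 753 and 717 TPM in the overexpression libraries. The overexpression values were the higher ones, but by only 1.25-fold on average, less than the shift of the median gene. Its log2 difference was 0.33 (adjusted p = 0.00762) in deposited TPM and -0.30 (adjusted p = 0.0423) after rescaling, a call in each direction, and the rescaled call was lost in 5 of 6 fits without 1 library, all but the one without control replicate 2. Gstm1 and Gstp1 encode glutathione transferases that conjugate electrophiles. Gstm1 stood at 226, 234 and 224 TPM against 213, 213 and 254 TPM, and the groups overlapped. Gstp1 stood at 139, 128 and 125 TPM against 137, 128 and 119.7 TPM, also with overlap. The log2 differences in deposited TPM were -0.014 for Gstm1 (adjusted p = 0.901) and -0.022 for Gstp1 (adjusted p = 0.836), and after rescaling -0.64 and -0.64 (adjusted p = 0.00342 and 0.000889). Both have close paralogs in the genome, so reads may have been split between copies.

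In the thioredoxin system the cytosolic pair rose and the mitochondrial pair did not. Txn1, cytosolic thioredoxin, was at 78.7, 78.1 and 77.4 TPM in the controls and 223, 232 and 194 TPM in the overexpression libraries. The control libraries differed little, and every overexpression value was far above them. The mean was 2.77-fold higher, with log2 differences of 1.46 (SE 0.0926, adjusted p = 1.42e-05) and 0.83 (SE 0.0756, adjusted p = 0.000102). Txnrd1, the selenoenzyme that reduces cytosolic thioredoxin, was at 29.5, 31.02 and 30.3 TPM against 104, 121 and 89.4 TPM. It rose 3.46-fold, with log2 differences of 1.75 (SE 0.12, adjusted p = 1.79e-05) and 1.13 (SE 0.0883, adjusted p = 5.52e-05). The calls of Txn1 and Txnrd1 held in all fits that left out a library, under both scalings.

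Txn2, the mitochondrial thioredoxin, was at 122, 124 and 115 TPM in the controls and 109.7, 107 and 109 TPM in the overexpression libraries. All 3 overexpression values lay below the controls, but the log2 difference of -0.14 was not called in deposited TPM (adjusted p = 0.144). After rescaling it was -0.76 (SE 0.0842, adjusted p = 0.000259). Txnrd2, the mitochondrial thioredoxin reductase, was at 12.4, 13.8 and 11.6 TPM against 16.2, 18.5 and 17.7 TPM. It was called higher in deposited TPM at 0.44 (adjusted p = 0.0109, lost at 0.0504 without control replicate 3) and stood at -0.15 after rescaling (adjusted p = 0.279), so its direction depends on the scaling. Srxn1, sulfiredoxin, rescues peroxiredoxins whose active cysteine has been overoxidised. It was at 8.60, 12.8 and 8.83 TPM in the controls and 42.2, 25.6 and 17.3 TPM in overexpression replicates 1 to 3, with replicate 1 the highest and no overlap. The Srxn1 difference in log2 was 1.34 (adjusted p = 0.00351) in deposited TPM and 0.75 (adjusted p = 0.0566) after rescaling. Without overexpression replicate 3 the rescaled difference was 1.00 and was called (adjusted p = 0.0182). Over all 6 rescaled limma fits that left out a library it lay between 0.43 and 1.00, with adjusted p up to 0.15.

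**Figure D3:**
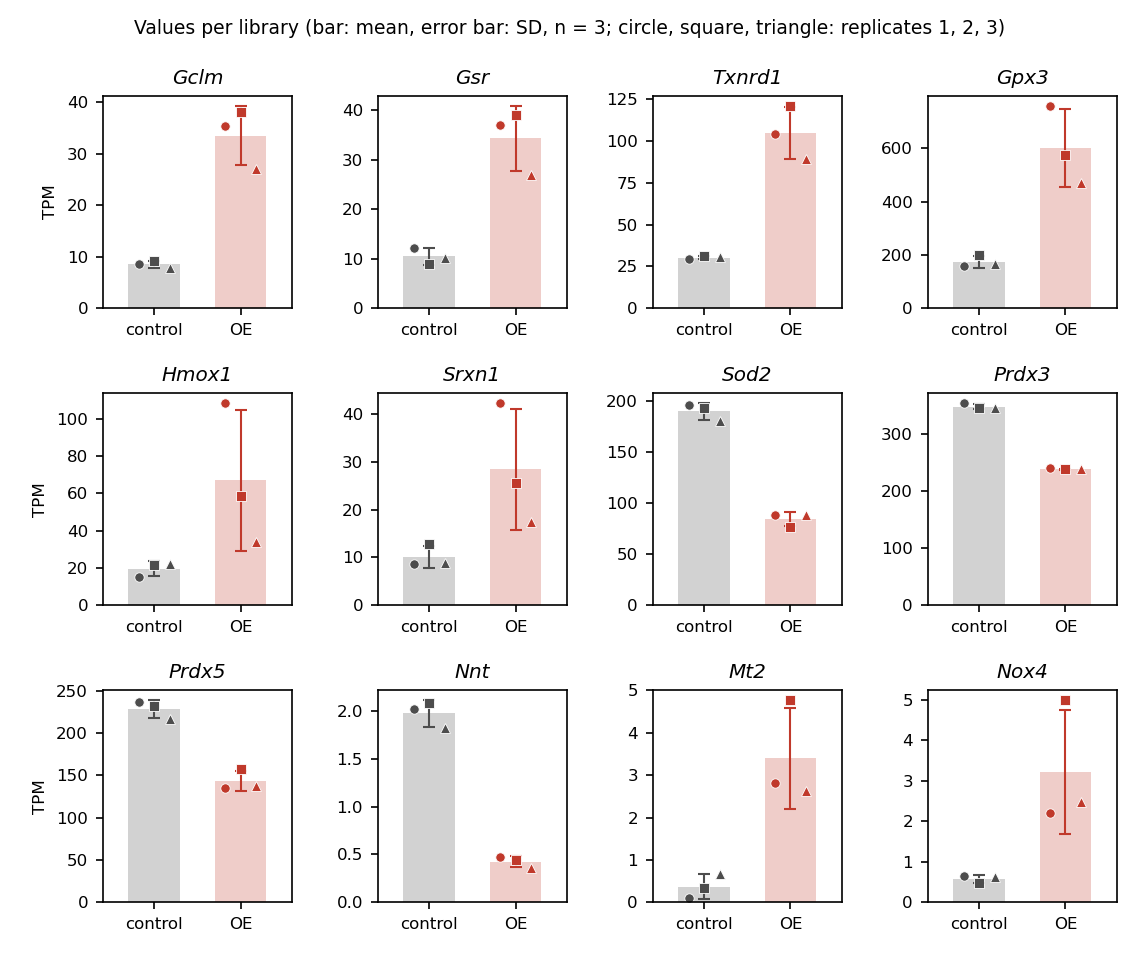
TPM in each library for 12 of the genes, with bars at the group mean and error bars of 1 SD (n = 3), on axes that start at 0. Gclm, Gsr, Txnrd1, Gpx3, Hmox1, Srxn1, Mt2 and Nox4 are higher in all 3 overexpression libraries, and Sod2, Prdx3, Prdx5 and Nnt are lower in all 3. Hmox1 and Srxn1 have their highest value in overexpression replicate 1.

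Among the peroxiredoxins, thiol enzymes that remove most of the hydrogen peroxide in cells, Prdx1 and Prdx4 rose and Prdx3 and Prdx5 fell. Prdx3, found in mitochondria only, was at 354, 345 and 346 TPM in the controls and 239.8, 238 and 238 TPM in the overexpression libraries. Both groups were tight, and all overexpression values were below all controls. Its log2 difference was -0.54 (SE 0.0725, adjusted p = 0.000302), lower than that of all but 6.96% of tested genes, and -1.17 (adjusted p = 4.27e-05) after rescaling. Prdx5, which is found in mitochondria and also in peroxisomes and cytosol, was at 236, 232 and 217 TPM against 135, 157 and 138 TPM. The control mean was 1.59-fold higher, with a log2 difference of -0.67 (SE 0.0908, adjusted p = 0.000326) and -1.29 (adjusted p = 2.04e-05) after rescaling. Prdx5 exons overlap those of Trmt112 on the other strand over 19.1% of their length.

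Prdx1, the main cytosolic member, was at 200.3, 197 and 184 TPM in the controls and 371, 432 and 369.9 TPM in the overexpression libraries. It rose 2.02-fold, with log2 differences of 1.01 (SE 0.0916, adjusted p = 5.49e-05) and 0.38 (SE 0.077, adjusted p = 0.00475). Prdx4, the member of the endoplasmic reticulum, was at 25.5, 19.7 and 21.5 TPM against 43.5, 57.6 and 39.99 TPM, with overexpression replicate 2 the highest. Tested in limma, the log2 difference of Prdx4 was 1.04 (adjusted p = 0.000568) in deposited TPM and 0.43 (adjusted p = 0.0366) after rescaling. The rescaled call was lost without control replicate 2 (adjusted p = 0.12), control replicate 3 (adjusted p = 0.098) or overexpression replicate 2 (adjusted p = 0.117). Prdx6, which also acts on phospholipids, was at 111, 112 and 104 TPM against 185, 199.8 and 178 TPM. Its log2 difference of 0.78 (adjusted p = 0.000122) was called in deposited TPM, and that of 0.16 (adjusted p = 0.107) after rescaling was not. Prdx2, a cytosolic member that is abundant in red cells, was at 221, 217 and 206 TPM against 192, 209.9 and 189 TPM, with overlapping groups. Its log2 difference was -0.12 (adjusted p = 0.215) in deposited TPM and -0.75 (adjusted p = 0.000148) after rescaling. The 7 erythroid markers summed to 777 to 1175 TPM in the controls and 742 to 1809 TPM in the overexpression libraries, and 0 of the 5 tested were called under either scaling.

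Of the dismutases and catalase, Sod2 fell and the other 3 were called higher in deposited TPM alone. Sod2, the manganese enzyme that removes superoxide in the mitochondrial matrix, was at 196, 193 and 181 TPM in the controls and 88.3, 76.7 and 89.00 TPM in the overexpression libraries. The highest overexpression value lay far below the lowest control value. The log2 difference was -1.16 (SE 0.0923, adjusted p = 3.24e-05), lower than that of all but 2.38% of tested genes, and -1.78 (SE 0.113, adjusted p = 2.61e-05) after rescaling. Sod1, the copper and zinc enzyme of the cytosol, was at 57.5, 62.9 and 59.1 TPM against 88.8, 82.3 and 80.5 TPM. The Sod1 difference in log2 was 0.48 (adjusted p = 0.0016) in deposited TPM and -0.14 (adjusted p = 0.225) after rescaling, so its direction depends on the scaling. Sod3, the extracellular dismutase, was at 9.60, 8.87 and 9.19 TPM against 22.4, 16.1 and 15.6 TPM, with log2 differences of 0.88 (adjusted p = 0.00119) and 0.30 (adjusted p = 0.151). Cat, the peroxisomal enzyme that splits hydrogen peroxide, was at 106, 135 and 124 TPM against 197, 196 and 190.0 TPM. The overexpression libraries were above all controls, with log2 differences of 0.68 (adjusted p = 0.000564) in deposited TPM and 0.054 (adjusted p = 0.68) after rescaling.

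Of the metal-binding genes, Mt2 rose, Mt1 was called lower after rescaling alone, and both ferritin genes were called higher in deposited TPM alone. Mt1 and Mt2 are neighbours on chromosome 8 of GRCm38 (94179082 to 94180327 and 94172664 to 94173568, both on the plus strand) and encode metallothioneins of nearly the same function. Mt1 was abundant at 296, 262 and 242 TPM in the controls and 254, 347 and 322 TPM in the overexpression libraries, and the groups overlapped. Its log2 difference was 0.20 (adjusted p = 0.2) in deposited TPM and -0.42 (adjusted p = 0.0305) after rescaling, so its direction depends on the scaling. The rescaled Mt1 call held only without overexpression replicate 3, and without overexpression replicate 1 Mt1 was called higher in deposited TPM (0.33, adjusted p = 0.0272). Mt2 was listed at 0.0972, 0.345 and 0.678 TPM in the controls and 2.81, 4.77 and 2.62 TPM in the overexpression libraries. These values correspond to 1, 5 and 6 reads against 28, 43 and 44 reads, so the control level is set by a handful of reads and no fold is given. The groups did not overlap, and the log2(TPM + 1) difference was 1.67 (SE 0.242, adjusted p = 0.000449) in deposited TPM and 1.34 (SE 0.235, adjusted p = 0.00251) after rescaling. In GENCODE M21, 73.5% of the Mt2 exon bases (432 of 588) are overlapped by the antisense gene Gm45774, which was itself listed between 0.0213 and 0.289 TPM. Some counting settings drop reads that fall on overlapping genes, the setting used is not given, and the part of the overlap in the low Mt2 values was not tested.

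Ferritin, the iron store, is built from heavy chains (Fth1), which oxidise iron, and light chains (Ftl1). Fth1 was at 1216, 1203 and 1199.9 TPM in the controls and 2115, 1840.1 and 1881 TPM in the overexpression libraries. The controls differed little, and all overexpression values were above them. The log2 difference was 0.69 (SE 0.0842, adjusted p = 0.000204) in deposited TPM and 0.06 (adjusted p = 0.685) after rescaling. Ftl1 was at 491, 509 and 419 TPM against 1065, 920.3 and 642 TPM, with overexpression replicate 3 the lowest of its group. Tested in limma, the log2 difference of Ftl1 was 0.86 (SE 0.175, adjusted p = 0.00253) and 0.24 (adjusted p = 0.262) after rescaling, or 0.40 (adjusted p = 0.0378) after rescaling without overexpression replicate 3. Over all 6 rescaled limma fits that left out a library it lay between 0.078 and 0.40, with adjusted p up to 0.653. Ferritin genes have many near-identical processed copies, and 26.5% of Ftl1 exon bases overlap another annotated gene, Gm10252, so both levels are uncertain. Macrophages are rich in ferritin, and their markers moved in the same direction, with sums as given above for Hmox1 and an untested part in these values.

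Of the NADPH-linked enzymes, Nnt fell, Nox4 rose and Cybb was higher in deposited TPM alone. Nnt encodes the transhydrogenase of the inner mitochondrial membrane, which makes NADPH for the glutathione and thioredoxin systems of the matrix. It was at 2.02, 2.08 and 1.82 TPM in the controls and 0.474, 0.442 and 0.360 TPM in the overexpression libraries, 4.63-fold higher in the controls. Nnt passed the filter only through the control libraries, so the filter favours this difference. The log2(TPM + 1) difference was -1.06 (SE 0.157, adjusted p = 0.000498), which understates the change of so low a gene, and -1.36 (adjusted p = 0.000199) after rescaling. In voom on the recovered reads, without that added 1, it was -2.86 (SE 0.221, adjusted p = 5.63e-05). GENCODE M21 has a pair of overlapping records of this name on chromosome 13, from 119335448 to 119408997 and from 119335528 to 119408952 on the minus strand. A widely used laboratory strain, C57BL/6J, carries a deletion in Nnt. The strain of these mice is not given, so a difference of strain background between the groups was not tested.

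Nox4, an NADPH oxidase that makes hydrogen peroxide without outside activation, was at 0.646, 0.468 and 0.618 TPM in the controls and 2.20, 4.99 and 2.47 TPM in the overexpression libraries. All overexpression values were above the controls, with replicate 2 the highest, and the mean was 5.57-fold higher. Nox4 passed the filter only through the overexpression libraries, so the filter favours this difference. The log2(TPM + 1) difference was 1.36 (SE 0.247, adjusted p = 0.00143) in deposited TPM and 1.00 (SE 0.221, adjusted p = 0.00732) after rescaling. Cybb, the catalytic subunit of the phagocyte NADPH oxidase, was at 6.09, 3.94 and 3.81 TPM in the controls and 18.9, 11.2 and 8.95 TPM in overexpression replicates 1 to 3. Replicate 1 of each group was the highest in it. Its log2 difference was 1.28 (SE 0.268, adjusted p = 0.00294) in deposited TPM and 0.73 (SE 0.269, adjusted p = 0.0567) after rescaling. Leaving out control replicate 1 (adjusted p = 0.028) or overexpression replicate 3 (adjusted p = 0.0413) brought the rescaled difference past the threshold. Over all 6 rescaled limma fits that left out a library it lay between 0.45 and 0.93, with adjusted p up to 0.162. Of the 20 macrophage markers, 20 were called higher in deposited TPM (background 59.0%) and 17 after rescaling (background 22.2%). The part of these markers in the Cybb values was not tested. The 16 neutrophil and lymphocyte markers summed to 6.51 to 8.24 TPM against 14.6 to 37.9 TPM.

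Ratios of 2 genes within a library do not depend on how the libraries are scaled, so they set a cytosolic and a mitochondrial gene side by side without a choice of scaling. Whether a ratio lies above 1 depends on the gene lengths used, which are not given. Its change between the groups does not depend on them. The pairs were chosen with earlier results of these data known. The ratios re-use the values given above, so they are no separate check of the calls. The ratio of Txn1 to Txn2 was 0.645, 0.632 and 0.674 in the controls and 2.03, 2.17 and 1.78 in the overexpression libraries. The thioredoxin with the higher TPM thus changed from the mitochondrial to the cytosolic one in 3 of 3 libraries. The ratio of Prdx1 to Prdx3 was 0.565, 0.569 and 0.533 in the controls and 1.55, 1.82 and 1.55 in the overexpression libraries, also crossing 1. The ratio of Sod1 to Sod2 was 0.293, 0.326 and 0.326 against 1.01, 1.07 and 0.905. The TPM of the cytosolic dismutase thus went from well below that of the mitochondrial one to about its level. The ratio of Txnrd1 to Txnrd2 was 2.37, 2.25 and 2.61 against 6.45, 6.53 and 5.04. As log2 ratios, overexpression exceeded control by 1.61, 1.56, 1.66 and 1.31 respectively, each with separated groups. The exact two-sided permutation p was 0.1 for each, the smallest that 3 against 3 allows, and 0.117 after Benjamini-Hochberg adjustment over 7 ratios, so the design could not reach 0.05.

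The other 3 ratios compared partners of one enzyme, store or gene pair. The ratio of the catalytic Gclc to the modifier Gclm was 1.18, 1.09 and 1.13 in the controls and 0.706, 0.610 and 0.579 in the overexpression libraries, a log2 difference of -0.85 with separated groups (exact permutation p = 0.1, adjusted 0.117). The modifier subunit thus had the higher TPM in the overexpression libraries and the catalytic one in the controls. Fth1 to Ftl1 was 2.48, 2.36 and 2.86 against 1.99, 2.000 and 2.93, a log2 difference of -0.18 with overlapping groups (exact permutation p = 0.5). Mt1 exceeded Mt2 by 3046, 758 and 357 times in the controls and by 90.4, 72.7 and 123 times in the overexpression libraries. The log2 difference of that ratio was -3.33 (exact permutation p = 0.1, adjusted 0.117), it was -2.48 without control replicate 1, where Mt2 had 1 read, and it was -1.47 with 1 TPM added to both genes.

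**Figure D4:**
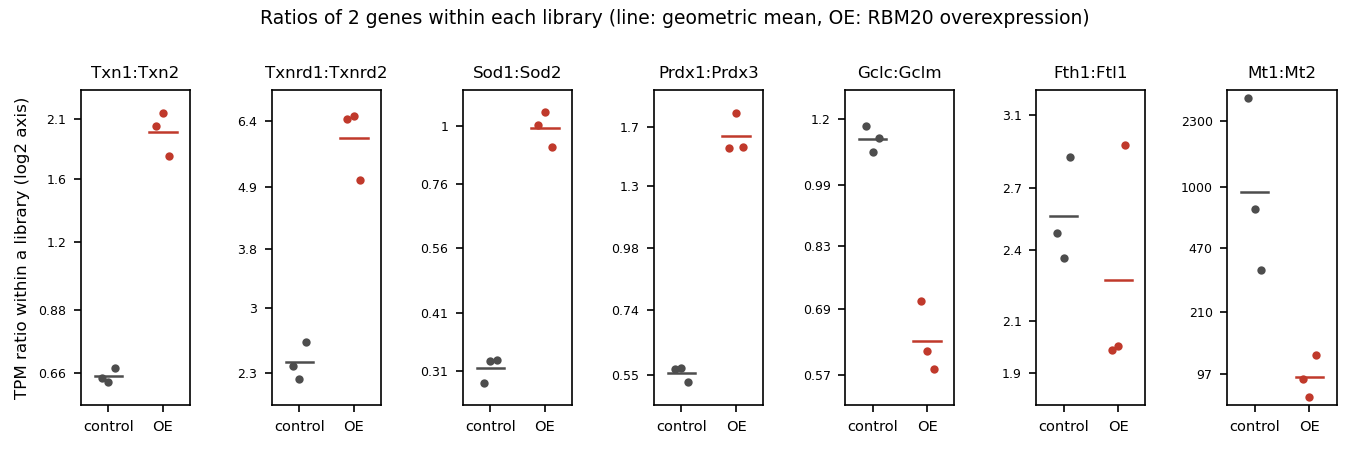
Ratios of TPM of 2 genes within each library for 7 pairs, on log2 axes, with a line at the geometric mean of each group. The first 4 ratios set a cytosolic gene over a mitochondrial one and are higher in all 3 overexpression libraries. The ratio of Fth1 to Ftl1 overlaps between the groups.

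The TPM values of these families were also expressed as shares of their sums, which re-uses the values above and is no separate check of the ratios. Prdx3 and Prdx5 together made up 51.7% ± 0.430 of the 6 peroxiredoxins in the controls, against 31.8% ± 1.09 with overexpression (SD, n = 3 each). Prdx1 went the other way, from 17.4% ± 0.224 to 32.4% ± 0.836. Summed over the 6, peroxiredoxin transcripts were at 1077 to 1148 TPM in the controls and 1153 to 1295 TPM in the overexpression libraries, so the sum moved far less than its parts. Sod2 made up 73.4% ± 1.04 of the 3 dismutases in the controls and 45.4% ± 2.34 in the overexpression group. Txn2 made up 60.6% ± 0.788 of the 2 thioredoxins against 33.5% ± 2.28. Among the 3 glutathione peroxidases, Gpx3 took 20.3% ± 3.18 against 38.1% ± 3.97, and Gpx4 took 68.6% ± 3.04 against 47.8% ± 5.53. In each of these shares the 3 control libraries and the 3 overexpression libraries did not overlap.

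Of the 35 genes, 6 have products that work mainly in mitochondria (Txn2, Txnrd2, Prdx3, Prdx5, Sod2 and Nnt), a grouping made after the values had been seen and therefore not tested. Of these 6, 4 were called lower (background 9.09%) and 1 higher (59.0%) in deposited TPM, and 5 were called lower (24.0%) and 0 higher (22.2%) after rescaling. Their median log2 difference was -0.61 in deposited TPM and -1.23 after rescaling. Nnt is counted here although it passed the filter only through the control libraries. Since the grouping followed the values, these counts beside the background are a description only. In the same libraries the cardiomyocyte markers moved in the same direction, with 8 of 12 called lower and 2 higher in deposited TPM and 10 lower and 1 higher after rescaling. The part of those markers in the mitochondrial members' values was not tested.

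The other genes of these pathways, taken from lists drawn up by function, are counted in the order higher, then lower. Over 149 tested genes of 9 lists, 91 were higher and 19 lower in deposited TPM and 44 and 45 after rescaling. Among all tested genes these shares were 59.0% and 9.09%, then 22.2% and 24.0%. Without overexpression replicate 1 the lists gave 88 and 16 in deposited TPM and 40 and 45 after rescaling. Of 9 other regulators of NRF2, 6 were higher and 0 lower in deposited TPM, and 2 and 0 after rescaling. Sqstm1, the autophagy receptor p62 that can capture KEAP1, was at 244, 274 and 237 TPM in the controls and 564, 657 and 581 TPM in the overexpression libraries, a log2 difference of 1.25 (adjusted p = 2.77e-05) and 0.62 (adjusted p = 0.000513) after rescaling. Mafg, a small MAF protein that pairs with NRF2 on DNA, was at 15.2 ± 1.60 TPM against 32.2 ± 2.24 TPM (SD, n = 3 each) and rose, with log2 differences of 1.03 (adjusted p = 0.000151) and 0.43 (adjusted p = 0.0127) after rescaling. Of 21 other NRF2 targets, 15 were higher and 3 lower in deposited TPM, and 6 and 6 after rescaling. Within them the aldo-keto reductase Akr1b8 was at 4.06, 2.55 and 2.34 TPM against 19.6, 29.96 and 20.7 TPM, 7.85-fold higher, while its close paralog Akr1b10 was at 64.2, 63.7 and 55.9 TPM against 21.3, 14.96 and 18.1 TPM, 3.38-fold higher in the controls. Their log2 differences were 2.62 and -1.71 (adjusted p = 3.72e-05 and 3.36e-05) in deposited TPM and 2.08 and -2.32 (adjusted p = 0.000144 and 2.78e-05) after rescaling. Reads of such similar genes may have been split between them.

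Of 25 other glutathione genes, 12 were higher and 4 lower in deposited TPM, and 8 and 11 after rescaling. Among all tested genes the shares were 59.0% and 9.09%, then 22.2% and 24.0%. The 2 genes named from this list have the smallest p of those called alike under both scalings with separated groups. Both rose, while 4 other genes of the list fell. Mgst1, a microsomal glutathione transferase, was at 39.5, 45.3 and 44.7 TPM in the controls and 140.4, 146 and 140.2 TPM in the overexpression libraries, and Gpx8, a peroxidase of the endoplasmic reticulum, was 3.04-fold higher. Their log2 differences were 1.70 and 1.57 (adjusted p = 8.67e-06 and 1.42e-05) in deposited TPM and 1.08 and 0.95 (adjusted p = 5.7e-05 and 8.98e-05) after rescaling. Of 26 other thioredoxin-type and repair genes, 16 were higher and 4 lower in deposited TPM, and 6 and 10 after rescaling. The 2 named from this list, picked in the same way, rose, while 4 others of the list fell. Txndc5, a disulfide isomerase of the endoplasmic reticulum, was 3.11-fold higher and Sesn3, a sestrin, 3.52-fold higher. The log2 differences were 1.60 and 1.66 (adjusted p = 1.99e-05 and 3.14e-05) in deposited TPM and 0.99 and 1.09 (adjusted p = 0.000255 and 0.000493) after rescaling. Of 7 genes for selenoprotein synthesis, on which the glutathione peroxidases and thioredoxin reductases depend, 5 were higher and 1 lower in deposited TPM, and 2 and 1 after rescaling. The 2 that rose were Sepsecs, which makes selenocysteine on its transfer RNA, at 2.24-fold, and Secisbp2, which reads the selenocysteine signal, at 2.10-fold. The log2 differences were 1.01 and 0.99 (adjusted p = 0.000437 and 0.000453) in deposited TPM and 0.47 and 0.41 (adjusted p = 0.0132 and 0.0318) after rescaling.

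Of 19 iron and heme genes, 9 were higher and 1 lower in deposited TPM, and 3 and 7 after rescaling. Among all tested genes the shares were 59.0% and 9.09%, then 22.2% and 24.0%. Alas1, the first enzyme of heme synthesis, fell from 103 ± 10.2 TPM to 46.5 ± 4.16 TPM (SD, n = 3 each; log2 difference -1.13, adjusted p = 7.24e-05, and -1.75, adjusted p = 5.01e-05, after rescaling). Pcbp1, an iron chaperone that loads ferritin, was 1.97-fold higher (log2 difference 0.96, adjusted p = 8.14e-05, and 0.34, adjusted p = 0.00575, after rescaling). Of 17 zinc and copper genes, 14 were higher and 0 lower in deposited TPM, and 9 and 2 after rescaling. Slc39a6, a zinc importer, was at 2.58, 2.67 and 2.19 TPM in the controls and 32.2, 48.3 and 28.3 TPM in the overexpression libraries, 14.6-fold higher (log2 difference 3.39, adjusted p = 1e-05, and 2.85, adjusted p = 1.96e-05, after rescaling). Slc39a1, another zinc importer, was 2.74-fold higher (log2 difference 1.42, adjusted p = 4.66e-05, and 0.80, adjusted p = 0.000414, after rescaling).

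Of 12 tested partners of the NADPH oxidases and other oxidant sources, 9 were higher and 2 lower in deposited TPM, and 5 and 2 after rescaling. Among all tested genes the shares were 59.0% and 9.09%, then 22.2% and 24.0%. Rap1a, a small GTPase of the phagocyte oxidase complex, was 2.001-fold higher, and Maob, a mitochondrial amine oxidase that makes hydrogen peroxide, was 2.09-fold higher in the controls. The log2 differences were 0.98 and -1.05 (adjusted p = 0.000157 and 0.000561) in deposited TPM and 0.36 and -1.65 (adjusted p = 0.0185 and 9.86e-05) after rescaling. Several of these partners are phagocyte genes, and the macrophage marker sums given above moved in the same direction. Of 13 mitochondrial NADPH and uncoupling genes, 5 were higher and 4 lower in deposited TPM, and 3 and 6 after rescaling. Mthfd2, a folate enzyme of mitochondria, was at 1.21, 1.37 and 0.969 TPM in the controls and 10.4, 8.37 and 4.55 TPM in the overexpression libraries (log2 difference 1.95, adjusted p = 0.000299, and 1.50, adjusted p = 0.00152, after rescaling). Aldh4a1, a mitochondrial proline catabolic enzyme, fell from 51.01 ± 3.03 TPM to 28.9 ± 2.25 TPM (SD, n = 3 each; log2 difference -0.80, adjusted p = 0.000257, and -1.41, adjusted p = 6.18e-05, after rescaling).

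Markers of other cell types were counted in the same libraries. Among all tested genes 59.0% were called higher and 9.09% lower in deposited TPM, and 22.2% and 24.0% after rescaling. Of 10 fibroblast markers, 7 were higher and 1 lower in deposited TPM and 5 and 3 after rescaling, and of 9 pericyte and smooth muscle markers, 4 and 1, then 2 and 4. None of 10 endothelial markers was called in deposited TPM (limma, 0 higher and 0 lower), and 0 were higher and 4 lower after rescaling. No marker of these lists was at 0 in all libraries. The part of any cell type in the values of the 35 genes was not tested.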

How the data were processed

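Polyadenylated RNA of 6 mouse left ventricles was sequenced as strand-specific read pairs, per the labels' protocols. The authors deposited 1 table of TPM values with gene symbols as rows. The submitters' processing notes name STAR-Fusion 1.11.0, GATK 4.2.6.1, edgeR 3.40.2, featureCounts 2.0.3 and build mm8, with no role for each. No source used here gives the aligner, the annotation or the strand setting.

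The 35 genes, the pathway lists and the ratios were chosen with earlier results of these data known. Groups came from the genotype labels. Replicate numbers were assigned in order within a group. The 12404 genes averaging 1 TPM or more were compared as log2(TPM + 1) by a two-sided moderated test with a variance trend in limma 3.58.1 (R 4.3.3), with Benjamini-Hochberg adjustment over all of them and a threshold of 0.05. This scale understates changes of low genes, and printed folds divide the group means in TPM. The same fit was run after rescaling by median of ratios. Ratios within a library were compared by exact permutation tests. Named beside the 35 genes are Rbm20 and, from each pathway list, the 2 genes with the smallest p among those called in the same direction under both scalings with separated groups. Esr1, Ddx3y and Gm45774, the gene antisense to Mt2, were chosen after their values were seen. Overlapping and marker genes are otherwise given without values of their own, as counts and sums.

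Whole reads were recovered from the steps between TPM values for 12271 of 12286 genes searched (99.9%, tolerance 0.001 reads) and include all 35 genes. They are known up to a whole factor per gene. Voom from limma on these reads was chosen after seeing the data. The other alternatives were further scalings, pseudocounts of 0.5 and 0.1, other filters and variance models, and each library left out in turn. The fits were tested on simulated data in which equal numbers of genes were raised and lowered. No shift of most genes was simulated, so these data cannot judge the choice of scaling. Promoter windows are RefSeq entries on GRCm38.p6, and gene positions and exon overlaps are those of GENCODE M21 on GRCm38, not of the build the notes name. They entered no test. Summaries and figures used Python 3.11.15, numpy 2.4.6, pandas 2.3.3, scipy 1.17.1 and matplotlib 3.10.9. Splicing was not analysed here.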

Additional observations from a re-analysis of the deposited data

How the results depend on the processing

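The scaling of the libraries was the choice that mattered most. In place of 26 genes called higher and 4 lower in deposited TPM (59.0% and 9.09% of all tested genes), rescaling by median of ratios gave 14 and 10 (22.2% and 24.0%), removal of mitochondrially encoded genes 22 and 8 (41.8% and 13.9%), quantile normalization 19 and 8 (23.9% and 22.7%), and voom on recovered reads 13 and 10 (21.3% and 23.4%). Pseudocounts of 0.5 and 0.1, no variance trend and robust moderation each gave 26 and 4 (58.8% to 59.2% and 9.01% to 9.08%), no filter 26 and 4 (34.8% and 5.32%), and a filter of 5 TPM, which leaves 32 of the genes, 24 and 3 (64.0% and 10.3%). With a library left out the counts were 25 to 27 higher (50.5% to 58.4%) and 4 lower (7.61% to 8.83%) in deposited TPM, and 10 to 18 higher (16.4% to 21.2%) and 8 to 9 lower (19.6% to 22.7%) after rescaling. Higher under both scalings in every such fit were Nqo1, Gclm, Gss, Gsr, Gpx3, Txn1, Txnrd1, Prdx1, Mt2 and Nox4, and lower were Sod2, Prdx3, Prdx5 and Nnt. Mt2, Nox4 and Nnt passed the filter only through the group in which they were high, so their calls are favoured by it.

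The log2 difference changed sign for Keap1 (-0.11 rescaled, -0.12 in voom, -0.069 with quantile normalization), Gpx4 (-0.30 rescaled, -0.30 in voom), Txnrd2 (-0.15 rescaled, -0.16 in voom, -0.11 with quantile normalization), Sod1 (-0.14 rescaled, -0.14 in voom) and Mt1 (-0.42 rescaled, -0.43 in voom, -0.12 with quantile normalization, -0.084 without mitochondrially encoded genes). With a library left out, in deposited TPM or after rescaling, it lay between -0.21 and 0.58 for Keap1, -0.39 and 0.37 for Gpx4, -0.77 and 0.029 for Gstm1, -0.70 and 0.027 for Gstp1, -0.20 and 0.50 for Txnrd2, -0.18 and 0.52 for Sod1, -0.034 and 0.76 for Cat, -0.51 and 0.33 for Mt1, and -0.0020 and 0.73 for Fth1. For Keap1, Gpx4, Txnrd2, Sod1 and Mt1 all fits after rescaling were below 0 and all in deposited TPM above it. The within-library ratios kept their direction in every alternative run, with ranges of 1.55 to 1.69 for Txn1 to Txn2, 1.25 to 1.43 for Txnrd1 to Txnrd2, 1.60 to 1.72 for Sod1 to Sod2, 1.48 to 1.60 for Prdx1 to Prdx3, -0.93 to -0.79 for Gclc to Gclm, -0.36 to -0.080 for Fth1 to Ftl1 and -4.03 to -2.48 for Mt1 to Mt2, with libraries left out.

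No paired analysis was possible because the labels give no number or batch that links a control library to an overexpression library. Depth limits Mt2 most, with 1 read in control replicate 1.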
